A study of Mus musculus with 8 samples.

Results

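Genes of DNA damage repair and of the DNA damage checkpoint were followed in mouse spleen B cells that were activated in culture by LMP1 or by an antibody against CD40. The group was set by name but with earlier results of these data known, so its counts are no independent test. The list held 37 genes, and a gene was measured where a probe set of the array carried its symbol alone. That held for 32 of the 37 genes, out of 21515 genes in the whole table. Fanca and Ddb2 were only on probe sets that also carry another gene's symbol, and Rad54b, Xrcc2 and Pms2 were not analysed here. The groups were LMP1 cells (allele label LMP1flSTOP/YFPflSTOP), YFP control cells (YFPflSTOP/+), CD40-activated cells and naive control cells (both B6/J), with 2 arrays each and replicates labelled biological. LMP1 and YFP control cells came from female (C57BL6XBALBc) F1 mice. Both were treated with TAT-Cre, a recombinase that enters cells and removes the STOP cassette, and were sorted for the YFP reporter 2 days later, a sort that reports recombination of the YFP allele and not of the LMP1 allele. CD40-activated and naive cells came from male C57BL6 mice without recombinase or sort. The CD40-activated cells were kept with anti-CD40 for 2 days, and the naive control cells went straight to RNA extraction. All cells were enriched from spleen by CD43 depletion. LMP1 is the Epstein-Barr virus membrane protein that signals like a CD40 receptor that is always on.

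Cells repair double-strand breaks by homologous recombination, which copies the sister chromatid and is therefore used after DNA replication, or by end joining, which seals the ends at any time. The Fanconi anaemia proteins act on crosslinks between strands, mismatch, base excision and nucleotide excision repair act on damage within 1 strand, and the checkpoint kinases halt the cell cycle while repair goes on. B cells also make breaks and uracils on purpose: class switching and somatic hypermutation of immunoglobulin genes use uracil removal by UNG, the mismatch protein MSH6, the polymerase eta that Polh encodes, and joining of the broken ends with Ku, ATM and the MRE11 complex.

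Values are log2 expression per probe set, so that a difference of 1 is a doubling of signal, and levels are compared for 1 gene across arrays, not between genes. A change passed the test at an adjusted p under 0.05 in limma, fitted on all 21515 genes. Where arrays of different groups are said not to overlap, or to lie above or below each other, this describes the levels. The share of all genes that separate in this way was not counted, so it is no further test. Replicates correlated across genes with r between 0.97 (YFP control) and 0.996 (LMP1), and the YFP control and naive control arrays were the uneven ones, with 950 and 364 genes more than 1 log2 apart. In no group was any of the 5 measured B cell markers below the array median on both arrays, and their mean level lay between 11.12 and 11.84 over the 8 arrays. The 5 measured T cell markers averaged 5.26 to 5.88 on the LMP1, YFP control and CD40-activated arrays, against 8.47 to 8.64 on the naive control arrays, and the 4 natural killer cell markers 4.17 to 4.79, against 6.06 to 6.73. Nothing in the labels says which arrays share an animal, so p-values measure the spread between these arrays.

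The promoters of 27 of the 32 measured genes were found in RefSeq (build GRCm38.p6), as 300-base windows around the gene start. An E2F site, the element through which genes are switched on as cells enter S phase, was searched as TTTCCCGC, TTTGGCGC, TTTCGCGC or TTTGCCGC on both strands, and a CCAAT box as CCAAT on both strands. The E2F letters were in 5 of the 27 windows (Brca2, Bard1, Xrcc6, Msh6 and Chek2), against 2.26% of all 32851 windows in the table, and CCAAT was in 16 of the 27, against 37.4% of all. The 250 bases before the start are shown for 3 genes with the E2F letters there that rose both with LMP1 and with CD40 activation (Bard1, Brca2 and Chek2) and for Xrcc6 and Xrcc5, whose products form the Ku dimer and whose levels moved differently. Capitals mark the E2F letters (or their reverse complement GCGGGAAA) and the CCAAT box (or ATTGG). A match is a description of the letters and no evidence of binding. The genes shown were picked with their changes known. Chek1, Brca1, Rad54l, Polq and Brip1, which rose most with LMP1, had no E2F letters in their windows. Exo1 and Fancd2 had no window. Xrcc6 and Msh6, with the letters, did not pass with CD40 activation. Whether the letters go with a rise was not tested. In Msh6 the E2F letters lie 16 bases after the start, and the CCAAT box of Xrcc6 lies after its start as well.
Bard1 (chr1:71102973-71103222, minus strand): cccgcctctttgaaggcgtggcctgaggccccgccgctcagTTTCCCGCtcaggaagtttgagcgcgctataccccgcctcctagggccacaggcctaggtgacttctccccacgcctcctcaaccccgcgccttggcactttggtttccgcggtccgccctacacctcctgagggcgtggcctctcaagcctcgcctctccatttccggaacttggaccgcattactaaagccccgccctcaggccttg
Brca2 (chr5:150522371-150522620, plus strand): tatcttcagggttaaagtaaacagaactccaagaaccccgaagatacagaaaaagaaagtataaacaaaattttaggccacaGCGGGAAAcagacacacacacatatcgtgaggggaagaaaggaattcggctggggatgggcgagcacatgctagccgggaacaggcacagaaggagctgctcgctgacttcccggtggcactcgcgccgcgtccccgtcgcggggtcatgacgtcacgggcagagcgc
Chek2 (chr5:110839733-110839982, plus strand): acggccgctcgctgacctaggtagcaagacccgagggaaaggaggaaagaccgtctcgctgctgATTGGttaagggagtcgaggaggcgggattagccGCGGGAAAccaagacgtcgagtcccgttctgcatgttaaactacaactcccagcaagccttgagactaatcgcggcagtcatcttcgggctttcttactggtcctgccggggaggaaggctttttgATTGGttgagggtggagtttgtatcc
Xrcc6 (chr15:82016119-82016368, plus strand): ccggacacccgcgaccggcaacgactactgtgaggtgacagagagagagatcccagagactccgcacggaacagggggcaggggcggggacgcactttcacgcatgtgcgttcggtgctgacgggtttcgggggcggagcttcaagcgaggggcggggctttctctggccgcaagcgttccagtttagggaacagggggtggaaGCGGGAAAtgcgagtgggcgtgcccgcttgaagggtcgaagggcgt
Xrcc5 (chr1:72307171-72307420, plus strand): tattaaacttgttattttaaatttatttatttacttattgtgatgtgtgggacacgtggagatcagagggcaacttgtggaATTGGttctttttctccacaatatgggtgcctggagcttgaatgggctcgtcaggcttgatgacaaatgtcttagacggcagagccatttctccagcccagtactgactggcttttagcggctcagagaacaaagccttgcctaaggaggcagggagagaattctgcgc

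What LMP1 changes was asked by setting LMP1 cells against YFP control cells, which share strain background, sex, recombinase and sort with them. Of the 32 genes 26 rose in LMP1 cells and 0 fell by limma (27 up and 1 down, Xrcc5, at an unadjusted p under 0.05), where 14.9% of all genes rose and 8.31% fell. Upward calls were 64.2% of all calls, or 70.6% with array medians subtracted and 52.0% once each set of arrays was quantile-normalized on its own. The checkpoint kinase Chek1 rose most (2.89 ± 0.21 log2, SE, or 7.39-fold, n = 2 arrays per group), followed by Brca1, Rad54l, Polq, Brip1, Exo1, Fancd2 and Bard1, all by more than 2 log2. The median change of the 32 genes was 1.23, against -0.08 over all genes. The measured genes of recombination, of the BRCA1 and BRCA2 group and of the checkpoint all rose. The 2 measured nucleotide excision genes, Xpc and Ercc1, did not pass. Outside the 32 genes, 10 of 16 further nucleotide excision genes rose, beside 19 of 31 recombination genes (1 fell) and 14 of 21 checkpoint genes. Markers of cell types moved too: 3 of 5 B cell markers fell, with mean levels of 11.12 to 11.17 on the LMP1 arrays, against 11.65 to 11.84 on the YFP control arrays. Of 5 monocyte and macrophage markers 2 fell, Adgre1 (-2.02) and Lyz2 (-1.91), with mean levels of 5.33 to 5.43 in LMP1, against 6.04 to 6.47 in YFP control, and 1 of 5 T cell markers fell. Their part in the result was not tested. On bulk RNA a higher share of cells that express a gene and more of its RNA per cell cannot be told apart.

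**Figure D1:**
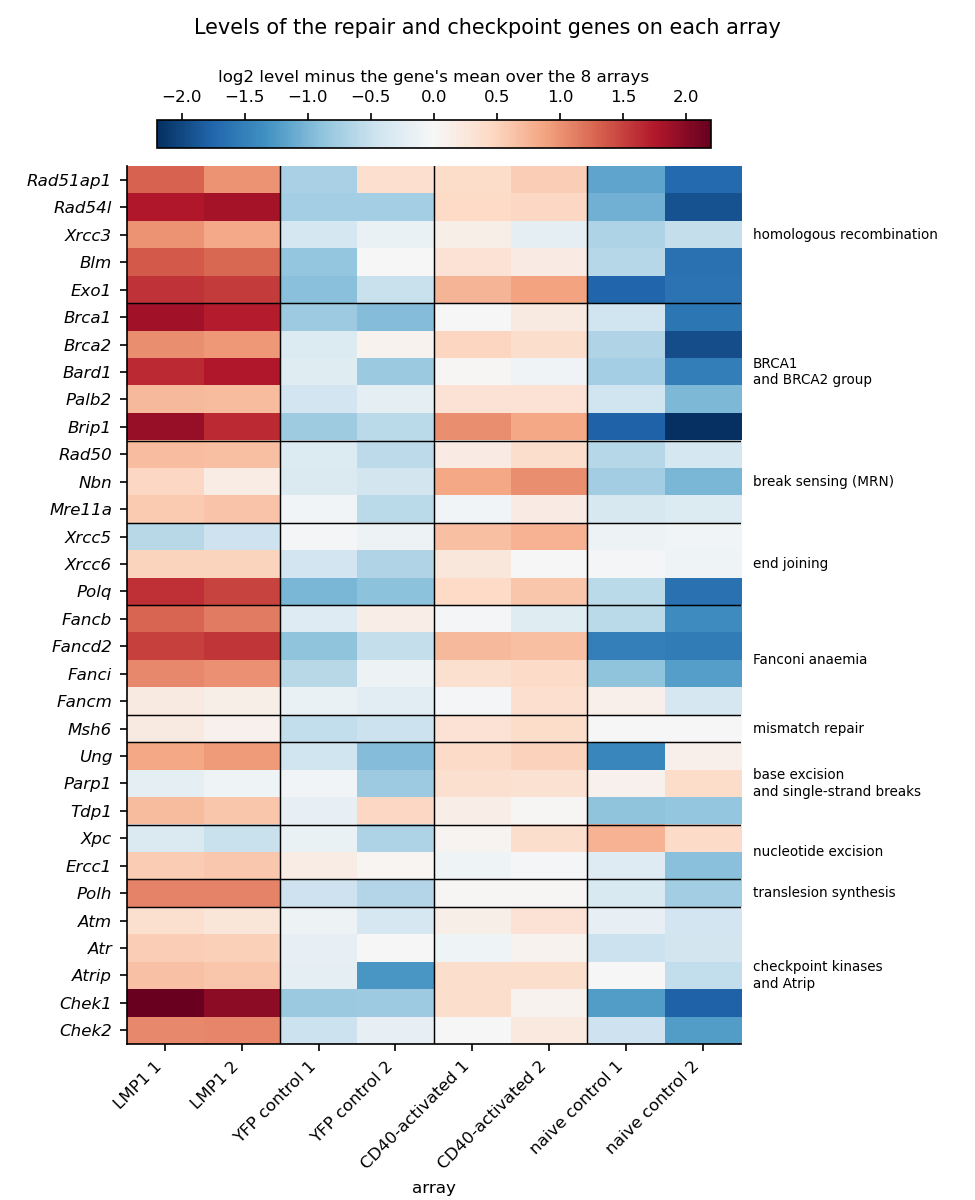
Log2 level of each of the 32 genes on each of the 8 arrays, shown as the difference from that gene's mean over the arrays (red higher, blue lower), with genes grouped by role and arrays by group. LMP1 arrays have the highest group mean for 26 genes, the naive control arrays the lowest for 22, and the CD40-activated arrays the highest for 5 (Nbn, Xrcc5, Fancm, Msh6 and Parp1). The matching shares over all genes were not counted.

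All 5 genes of the checkpoint rose with LMP1. Chek1 encodes the kinase that slows the cell cycle when replication forks stall. Its level was 9.54 and 9.34 on the LMP1 arrays, against 6.55 and 6.56 on the YFP control arrays (adjusted p = 2.45e-05). Chek2, encoding the kinase that relays breaks, was at 8.17 and 8.19 in LMP1 and 6.64 and 6.94 in YFP control (change 1.39 ± 0.25; adjusted p = 0.00251). Both kinases were well apart between the groups on every array. Atrip, the partner that brings ATR to single-stranded DNA, was at 7.91 and 7.87 in LMP1 and 7.04 and 5.98 in YFP control, with a change of 1.38 ± 0.31. The YFP control arrays were unequal for Atrip, and without YFP control 2 its change was 0.85. The apical kinases themselves moved less, with Atr at 8.72 and 8.70 in LMP1 and 7.99 and 8.18 in YFP control (0.63 ± 0.16; adjusted p = 0.0197). Atm was at 9.44 and 9.36 in LMP1 and 8.97 and 8.72 in YFP control (0.56 ± 0.18; adjusted p = 0.0476). Atr has a dim probe set besides, and with the mean of both its change was 0.09 (adjusted p = 0.775).

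The BRCA1 and BRCA2 group rose in full, 5 of 5. Brca1 and Bard1 encode the partners of a ubiquitin ligase that directs breaks to recombination. Brca1 stood at 9.0 and 8.89 in LMP1 and 6.36 and 6.21 in YFP control (change 2.66 ± 0.31; adjusted p = 0.000239). Bard1 stood at 8.47 and 8.59 in LMP1 and 6.57 and 6.01 in YFP control (2.24 ± 0.27; adjusted p = 0.000276). Every LMP1 array was above every YFP control array for both partners, a separation whose share over all genes was not counted. Brip1, a helicase that binds BRCA1, was at 9.05 and 8.78 in LMP1 and 6.35 and 6.53 in YFP control (2.48 ± 0.21; adjusted p = 4.44e-05). Palb2, which bridges BRCA1 and BRCA2, was at 7.55 and 7.53 in LMP1 and 6.42 and 6.63 in YFP control (1.02 ± 0.20; adjusted p = 0.0051). Neither gene overlapped between the groups. Brca2, which loads the recombinase onto DNA, changed by 1.09 ± 0.34 with an adjusted p of 0.0438, at 8.43 and 8.36 in LMP1 and 7.12 and 7.49 in YFP control. The groups did not overlap for Brca2, but its call was lost when any array other than a naive control was left out, with an adjusted p of up to 0.237 over the alternatives.

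All 5 measured recombination genes rose as well. Rad54l, a motor protein of strand invasion, was at 8.42 and 8.49 in LMP1 and 5.91 and 5.92 in YFP control (2.54 ± 0.25; adjusted p = 9.1e-05). Exo1, the nuclease that resects broken ends and also serves mismatch repair, was at 8.88 and 8.82 in LMP1 and 6.37 and 6.79 in YFP control (2.27 ± 0.18; adjusted p = 3.54e-05). For both genes the LMP1 arrays lay more than 2 log2 above every YFP control array. Blm, the helicase that separates joined chromatids, changed by 1.73 ± 0.34, at 9.39 and 9.30 in LMP1 and 7.19 and 8.04 in YFP control. Rad51ap1, which stimulates strand exchange, was at 8.24 and 7.93 in LMP1 and 6.23 and 7.31 in YFP control (1.32 ± 0.32). Both genes were higher on YFP control 2 than on YFP control 1, and without YFP control 1 the Rad51ap1 change was 0.78 (adjusted p = 0.0468). Xrcc3, a paralog of the recombinase, changed by 1.18 ± 0.19 (adjusted p = 0.00132).

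The MRE11 complex senses breaks and activates ATM, and its 3 genes rose by moderate amounts. Rad50, which tethers the ends, was at 9.36 and 9.34 in LMP1 and 8.38 and 8.10 in YFP control (1.11 ± 0.18; adjusted p = 0.00148). Mre11a, the nuclease, was at 9.45 and 9.50 in LMP1 and 8.80 and 8.27 in YFP control (0.94 ± 0.20; adjusted p = 0.00741). Nbn, the subunit that binds ATM, was at 8.45 and 8.16 in LMP1 and 7.67 and 7.58 in YFP control (0.68 ± 0.18; adjusted p = 0.0213). All 3 were higher on both LMP1 arrays. Among the end-joining genes Polq, the polymerase of the pathway that joins ends at short homologies, rose most. It was at 8.78 and 8.65 in LMP1 and 6.16 and 6.27 in YFP control (2.50 ± 0.29; adjusted p = 0.000222). The Ku dimer is the first protein on a broken end. Xrcc6, encoding Ku70, was at 7.52 and 7.52 in LMP1 and 6.60 and 6.37 in YFP control and rose (1.04 ± 0.17; adjusted p = 0.0017). Xrcc5, encoding Ku80, was at 7.50 and 7.66 in LMP1 and 8.07 and 8.0 in YFP control, a difference of -0.46 ± 0.16 that did not pass (adjusted p = 0.0675). The LMP1 arrays were lower for Xrcc5 and higher for Xrcc6, without overlap. When each set of arrays was quantile-normalized separately the Xrcc5 value was -0.79 and passed (adjusted p = 0.00772).

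Of 4 measured Fanconi anaemia genes 3 rose. Fancd2 and Fanci encode the pair that is clamped on crosslinked DNA. Fancd2 was at 9.20 and 9.26 in LMP1 and 6.80 and 7.16 in YFP control (2.25 ± 0.17; adjusted p = 3.02e-05), and Fanci changed by 1.40 ± 0.20 (adjusted p = 0.000848). Fancb, an X-linked subunit of the core complex, changed by 1.28 ± 0.26. Fancm, which anchors that complex, was at 8.67 and 8.60 in LMP1 and 8.33 and 8.23 in YFP control, a difference of 0.36 that did not pass. Msh6, which recognises mismatches, was at 7.88 and 7.77 in LMP1 and 7.13 and 7.20 in YFP control and rose (0.66 ± 0.16; adjusted p = 0.0119). Ung, the uracil glycosylase of base excision repair and class switching, was at 7.75 and 7.83 in LMP1 and 6.46 and 5.95 in YFP control (1.59 ± 0.40; adjusted p = 0.0164). Polh, the polymerase that copies past ultraviolet lesions, was at 9.01 and 9.02 in LMP1 and 7.46 and 7.27 in YFP control (1.65 ± 0.19; adjusted p = 0.000194). For Ung and Polh, as for Fancd2, all LMP1 values were above all YFP control values.

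The 4 genes that did not pass besides Xrcc5 and Fancm came from excision and single-strand break repair. Parp1, the sensor of strand breaks, was at 9.93 and 10.05 in LMP1 and 10.09 and 9.36 in YFP control (0.27; 95% interval -0.27 to 0.80). Tdp1, which removes trapped topoisomerase I, was at 9.58 and 9.50 in LMP1 and 8.71 and 9.35 in YFP control (0.51; 95% interval 0.04 to 0.98). The LMP1 arrays lay between the YFP controls for Parp1 and above both for Tdp1. The YFP controls were unequal for both genes: without YFP control 1 Parp1 was at 0.63 and passed (adjusted p = 0.0330) and Tdp1 at 0.19, while without YFP control 2 Parp1 was at -0.10 and Tdp1 at 0.83 and passed (adjusted p = 0.00705). Ercc1, a subunit of the nuclease that cuts out damaged DNA, was at 8.17 and 8.22 in LMP1 and 7.79 and 7.66 in YFP control (0.47). Xpc, which finds distorted DNA, was at 6.66 and 6.49 in LMP1 and 6.83 and 6.31 in YFP control (0.01; 95% interval -0.49 to 0.50), and its groups overlapped.

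Of the 26 calls with LMP1, 16 were made under every alternative run. Without LMP1 1 the other 10 were lost (Rad51ap1, Brca2, Nbn, Mre11a, Fancb, Msh6, Ung, Atm, Atr and Atrip), which left 16 genes called. Without LMP1 2 the same genes apart from Rad51ap1 and Fancb were lost, which left 18. Without YFP control 2 the calls of Brca2, Nbn, Ung and Atm were lost, and Atm also lost its call with either one of the CD40-activated arrays left out.

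**Figure D2:**
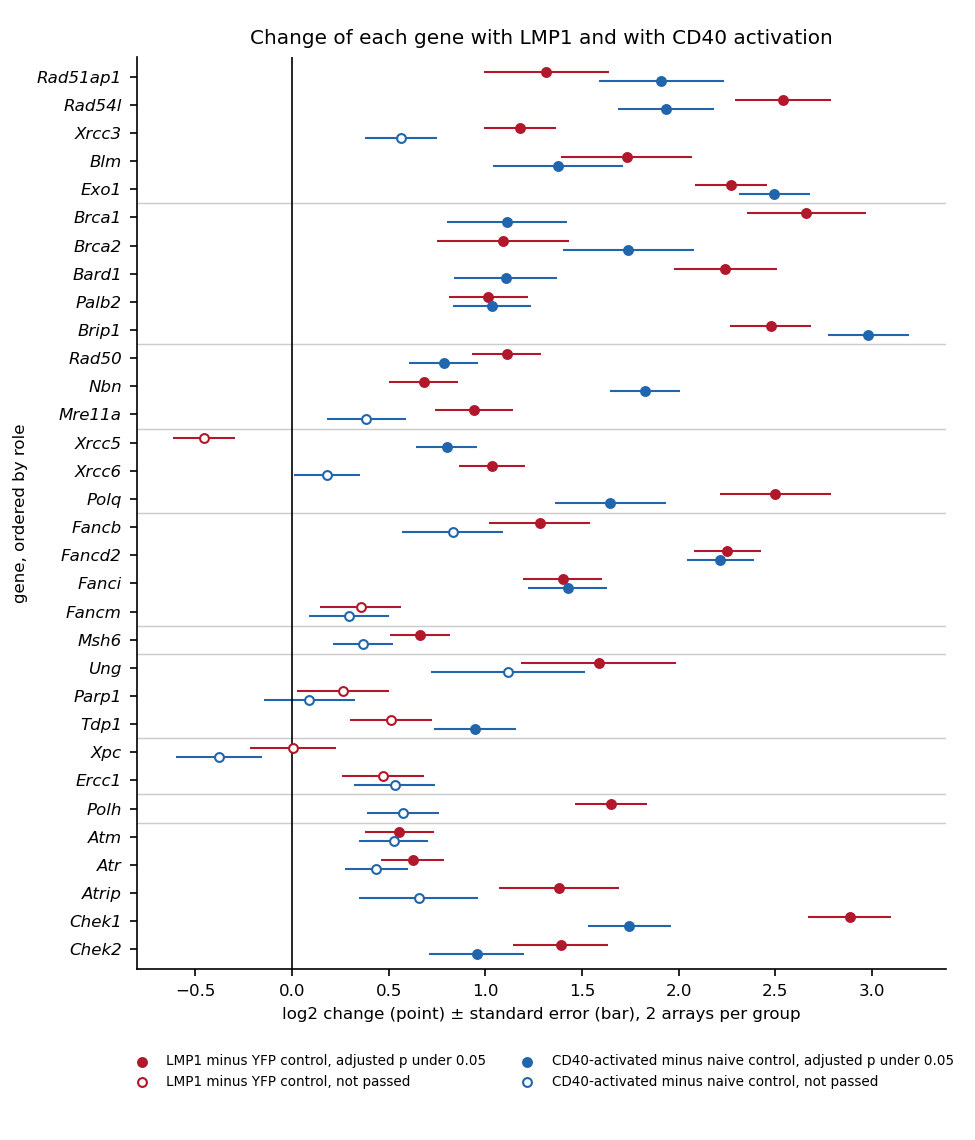
Log2 change of each gene with its standard error, for LMP1 minus YFP control (red) and CD40-activated minus naive control (blue), 2 arrays per group, with filled points where the adjusted p was under 0.05. Of the red points 26 are filled and of the blue points 18, all of them right of 0, and Xrcc5 and Nbn are the genes where blue lies farthest to the right of red.

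Activation through CD40 was assessed by setting CD40-activated cells against naive control cells, where 2 days of culture go along with the antibody and cannot be told apart from it. Of the 32 genes 18 rose and 0 fell by limma (26 up and 0 down at an unadjusted p under 0.05), where 11.0% of all genes rose and 6.65% fell, and the median change was 0.95 against -0.05 over all genes. Upward calls were 62.4% of all calls, or 73.7% with array medians subtracted and 52.6% with each set quantile-normalized, where 12 genes rose. Brip1 rose most (2.98 ± 0.21 log2, SE, or 7.89-fold, n = 2 arrays per group), followed by Exo1 (2.50), Fancd2 (2.22), Rad54l (1.94), Rad51ap1 (1.91), Nbn (1.83), Chek1 and Brca2. The 5 genes of the BRCA1 and BRCA2 group and 4 of 5 recombination genes rose, against 2 of 5 checkpoint genes and 0 of 2 nucleotide excision genes. Outside the 32 genes, 14 of 31 recombination genes, 12 of 21 checkpoint genes (2 fell) and 6 of 16 nucleotide excision genes rose. Of the 18 called among the 32 here, 16 were also called with LMP1, where 26 of the 32 were called. The matching overlap over all genes was not counted. T cell markers averaged 5.42 to 5.88 on the CD40-activated arrays, against 8.47 to 8.64 on the naive control arrays, and 5 of 5 fell. Also down were 2 of 4 natural killer cell, 1 of 2 erythroid and platelet and 1 of 4 neutrophil markers. Of 5 monocyte and macrophage markers 2 fell and 1 rose, and 1 of 5 B cell markers rose. Their part in the result was not tested.

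In the BRCA1 and BRCA2 group Brip1 was at 8.16 and 7.99 on the CD40-activated arrays, against 5.36 and 4.83 on the naive control arrays (adjusted p = 3.66e-05). Brca1 was at 7.16 and 7.36 in CD40-activated and 6.73 and 5.57 in naive control cells (1.11 ± 0.31; adjusted p = 0.0344). Brca2 was at 7.89 and 7.80 in CD40-activated and 6.75 and 5.46 in naive control cells (1.74 ± 0.34; adjusted p = 0.00661). Brca1, Brca2 and several other genes were higher on naive control 1 than on naive control 2, so the size of their change rests on which naive array is used. Without naive control 2 the change of Brca1 was 0.53 (adjusted p = 0.123), that of Bard1 0.72, of Blm 0.87, of Chek2 0.57 and of Brca2 1.09, and the first 4 of these no longer passed. Without naive control 1 the change of Brca1 was 1.69. With all arrays in the fit Bard1 was at 6.85 and 6.76 in CD40-activated and 6.09 and 5.31 in naive control cells (1.11 ± 0.27; adjusted p = 0.0186). Palb2 was at 7.15 and 7.16 in CD40-activated and 6.40 and 5.84 in naive control cells (1.04 ± 0.20; adjusted p = 0.00672).

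Among the recombination genes Exo1 was at 8.03 and 8.18 in CD40-activated and 5.55 and 5.67 in naive control cells (2.50 ± 0.18; adjusted p = 4.16e-05). Rad54l was at 7.11 and 7.12 in CD40-activated and 5.61 and 4.75 in naive control cells (1.94 ± 0.25; adjusted p = 0.000703). Rad51ap1 was at 7.35 and 7.49 in CD40-activated and 5.78 and 5.24 in naive control cells (1.91 ± 0.32; adjusted p = 0.00301). These 3 genes lay more than 1 log2 above the higher naive array on each CD40-activated array. Blm was at 8.35 and 8.21 in CD40-activated and 7.41 and 6.40 in naive control cells and rose by 1.38 ± 0.34. Xrcc3 was at 7.20 and 6.85 in CD40-activated and 6.38 and 6.54 in naive control cells, a difference of 0.57 that did not pass (adjusted p = 0.0642).

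The break-sensing genes did not move evenly. Nbn was at 8.84 and 9.02 in CD40-activated and 7.23 and 6.98 in naive control cells and rose by 1.83 ± 0.18 (adjusted p = 0.000177). Rad50 was at 8.86 and 9.06 in CD40-activated and 8.06 and 8.29 in naive control cells and rose by 0.79 ± 0.18 (adjusted p = 0.014). Mre11a was at 8.80 and 9.05 in CD40-activated and 8.52 and 8.56 in naive control cells, a difference of 0.39 ± 0.20 that did not pass (adjusted p = 0.234). Of the 3 changes that of Nbn was the highest here and the lowest with LMP1. The Ku genes were also unequal, with Xrcc5 at 8.77 and 8.88 in CD40-activated and 8.0 and 8.05 in naive control cells (0.80 ± 0.16; adjusted p = 0.00716). Xrcc6 was at 7.27 and 7.02 in CD40-activated and 6.99 and 6.94 in naive control cells (0.18 ± 0.17; adjusted p = 0.527). Here it was Xrcc5 that rose, and for Xrcc6 the CD40-activated arrays lay just above the naive ones. Polq was at 7.61 and 7.77 in CD40-activated and 6.57 and 5.52 in naive control cells and rose by 1.65 ± 0.29 (adjusted p = 0.00361).

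Fancd2 was at 8.41 and 8.35 in CD40-activated and 6.18 and 6.15 in naive control cells (2.22 ± 0.17; adjusted p = 5.32e-05), and Fanci rose by 1.43 ± 0.20. Fancb (0.83) and Fancm (0.30) did not pass. Of the checkpoint genes Chek1 was at 7.76 and 7.45 in CD40-activated and 6.14 and 5.58 in naive control cells (1.75 ± 0.21; adjusted p = 0.000579), and Chek2, at 7.13 and 7.33 in CD40-activated and 6.66 and 5.89 in naive control cells, rose by 0.96 ± 0.25. Chek1 and the Fanconi pair were higher on both CD40-activated arrays than on any naive array. Atrip (0.66), Atm (0.53) and Atr (0.44) had positive values that did not pass.

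Among the excision genes Tdp1 was at 9.03 and 8.91 in CD40-activated and 8.01 and 8.04 in naive control cells and rose by 0.95 ± 0.21. The others did not pass. Parp1 was at 10.50 and 10.48 in CD40-activated and 10.24 and 10.56 in naive control cells (0.09; 95% interval -0.44 to 0.62). Ercc1 was at 7.52 and 7.57 in CD40-activated and 7.33 and 6.70 in naive control cells (0.53). Xpc, at 7.04 and 7.36 in CD40-activated and 7.75 and 7.41 in naive control cells, had the only negative value (-0.38; 95% interval -0.88 to 0.12). The mismatch gene Msh6 was at 0.37. Polh was at 7.94 and 7.94 in CD40-activated and 7.58 and 7.15 in naive control cells, a difference of 0.58 that did not pass. Ung was at 7.31 and 7.40 in CD40-activated cells and 5.47 and 7.01 in naive control cells. Its CD40-activated arrays were above both naive arrays, but the naive arrays lay far apart and the change of 1.12 ± 0.40 did not pass (adjusted p = 0.0851). Without naive control 1 the change of Ung was 0.35, and without naive control 2 it was 1.89 and passed (adjusted p = 0.00279). Of the 18 calls with CD40 activation, 9 were made under every alternative run, namely those of Rad51ap1, Rad54l, Exo1, Brip1, Nbn, Polq, Fancd2, Fanci and Chek1. Without CD40-activated 1 the calls of Blm, Brca1, Brca2, Bard1, Palb2, Rad50, Tdp1 and Chek2 were lost, which left 10. Without CD40-activated 2 that of Xrcc5 was lost as well, which left 9. Tdp1 also lost its call with either one of the naive controls left out, Rad50 without naive control 1, and Brca1 with either one of the LMP1 arrays left out. Calls were also gained: 24 genes were called with either one of the YFP controls left out, and of the genes that did not pass above Fancb was called under 6 of 15 alternatives, Polh under 5, Xrcc3 under 3, Ung, Atm, Atr and Atrip under 2 each and Ercc1 under 1.

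The other genes of these pathways were taken from a list of 150, of which 133 were measured. With LMP1 70 of them rose and 3 fell, with a median change of 0.64, and with CD40 activation 43 rose and 3 fell, with a median of 0.40. By role, 19 of 31 further recombination genes rose and 1 fell with LMP1, as did 14 of 21 checkpoint genes with 0 down, 10 of 16 nucleotide excision genes with 0 down, and 7 of 13 Fanconi genes with 0 down. BRCA1 complexes had 8 of 13 up and 0 down, and mismatch repair 1 of 3 up and 0 down. Base excision had 6 of 17 up and 1 down (median 0.29), translesion synthesis 3 of 9 up and 1 down (median 0.15), and end joining 2 of 10 up and 0 down (median 0.05), the last near the 14.9% of all genes that rose. Prkdc, encoding the kinase that works with Ku, was at -0.06 with LMP1 and 0.20 with CD40 activation and did not pass in either. The cell cycle inhibitor Cdkn1a, a target of the damage checkpoint, was highest of the list with LMP1, at 10.79 and 10.79 in LMP1 and 6.85 and 6.68 in YFP control (4.03 ± 0.16). It was at 7.88 and 7.78 in CD40-activated and 6.35 and 6.40 in naive control cells (1.46 ± 0.16). The fork protection gene Tipin (3.0) and the nuclease Dna2 (2.42) followed with LMP1, and the histone gene H2ax (2.71) had YFP controls as far apart as 9.52 and 6.51. The glycosylase Mbd4 (-1.51), the BLM partner Rmi1 (-1.07) and the translocase Hltf (-0.85) fell with LMP1. With CD40 activation the mitosis-delaying kinase Wee1 (3.47), the chromatin remodeller Hells (2.97), the nuclease Gen1 (1.93) and the phosphatase Cdc25a (1.92) rose most. Its sister phosphatase Cdc25b (-1.68), Gadd45g (-1.51) and the glycosylase Neil1 (-1.18) fell.

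Genes of DNA replication and mitosis moved in the same comparisons. With LMP1 23 of 24 replication genes and 19 of 19 mitosis genes rose, with medians of 2.02 and 2.03, and with CD40 activation 21 of 24 and 18 of 19 rose, with medians of 1.63 and 1.79. The medians of the repair and checkpoint genes, 1.23 and 0.95, were lower than these. How far repair gene levels follow the share of dividing cells was not tested.

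**Figure D3:**
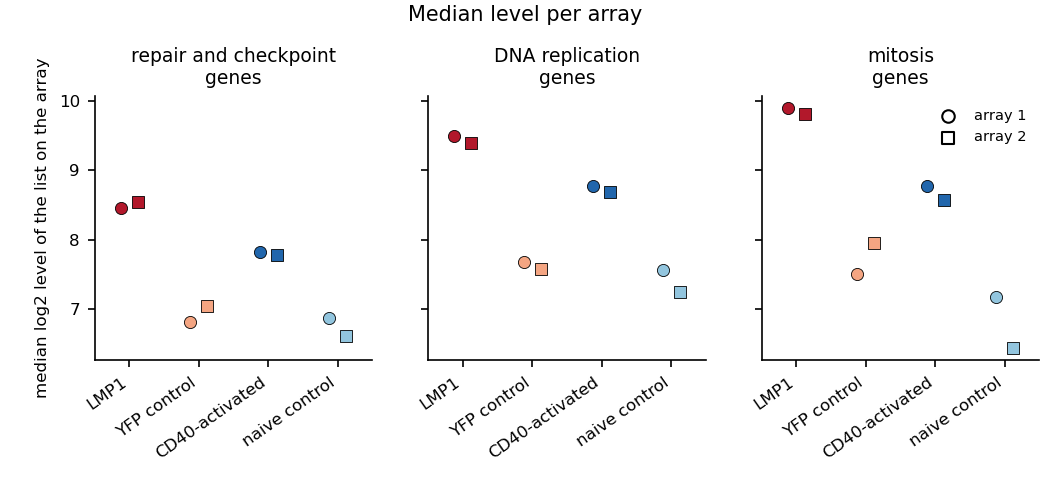
Median log2 level on each array of the 32 repair and checkpoint genes, 24 DNA replication genes and 19 mitosis genes, with a circle for array 1 and a square for array 2 of each group. LMP1 arrays are highest in every panel (repair medians 8.46 and 8.54), CD40-activated arrays come next (7.83 and 7.79), and the mitosis medians of the naive control arrays differ most between replicates (7.17 and 6.44).

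The naive control arrays differed between themselves in these genes. Naive control 1 was above naive control 2 at 23 of the 32 genes, by a median of 0.39, while the median gap was 0.01 over all genes. The gap was 0.32 for replication genes and 0.82 for mitosis genes, where naive control 1 was higher for 19 of 19. More than 1 log2 lay between the naive arrays for 5 of the 32 genes: Brca1, Brca2, Blm, Polq and, in the other direction, Ung. Over the 32 genes the median gap was 0.06 between the LMP1 arrays, -0.01 between the YFP controls and -0.06 between the CD40-activated arrays (array 1 minus array 2).

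LMP1 cells were also set directly against CD40-activated cells, where background, sex, recombinase, sort and set of arrays differ along with the stimulus and cannot be told apart from it. Of the 32 genes 12 were higher in LMP1 cells and 2 lower, where 9.66% of all genes were higher and 5.17% lower, and the median difference was 0.61 against 0.00 over all genes. Chek1 led with 1.84 ± 0.21 (adjusted p = 0.000431), followed by Bard1 (1.73 ± 0.27), Brca1 (1.69 ± 0.31), Fancb (1.37 ± 0.26), Rad54l (1.34 ± 0.25), Polh (1.08 ± 0.19), Polq (1.03 ± 0.29) and Xrcc3 (0.95 ± 0.19). Chek2, Fancd2, Brip1 and Exo1 were higher in LMP1 cells by 0.75 to 0.95. Xrcc5 (-1.25 ± 0.16; adjusted p = 0.000695) and Nbn (-0.63 ± 0.18; adjusted p = 0.0444) were lower.

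Fancb lies on the X chromosome and was at 7.53 and 7.38 in LMP1 and 6.21 and 5.97 in CD40-activated cells, from female and male mice. It was also higher in YFP control (5.96 and 6.39) than in naive control cells (5.66 and 4.86), a difference of 0.92 ± 0.26 (adjusted p = 0.0384). Without naive control 2 that difference was 0.52. LMP1 and YFP control cells, both from female mice, differed by 1.28, and the YFP control values lay near those of CD40-activated cells. The part of sex was not tested and cannot be told apart from background, recombinase, sort and set of arrays. Of the checkpoint genes Atm, Atr and Atrip did not pass between LMP1 and CD40-activated cells. Of the 14 calls, those of Bard1, Xrcc5, Polh and Chek1 were made under every alternative run. Leaving out an LMP1 or a CD40-activated array left 5 to 7 calls, and with these 4 arrays alone in the fit there were 27. Leaving out either YFP control gave 21. Of the other repair genes 36 of 133 were higher in LMP1 cells and 2 lower, led by Cdkn1a (2.96), Faap24 (2.42), Gadd45b (2.06) and Fancf (2.05), with Sem1 (-1.50) and Hltf (-0.96) lower.

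The difference between the LMP1 response (LMP1 minus YFP control) and the CD40 response (CD40-activated minus naive control) asks which genes moved by unlike amounts, and what the 2 groups of a set share drops out of it, though the days of culture separate the groups of the CD40 set alone. It passed for 2 of the 32 genes upward and 2 downward, where 4.20% of all genes passed upward and 4.12% downward. In the same difference 5 of 5 T cell markers (median 2.69) and 2 of 4 natural killer cell markers passed upward, as did 1 of 2 erythroid and platelet markers, while 3 of 5 B cell markers (median -1.15) and 2 of 5 monocyte and macrophage markers passed downward. Their part in the result was not tested. With 4 of 32 called, the share of these genes was near that of all genes. Chek1 (1.14 ± 0.30; adjusted p = 0.0479) and Polh (1.08 ± 0.26; adjusted p = 0.0341) had a higher LMP1 response than CD40 response. Xrcc5 (-1.26 ± 0.22; adjusted p = 0.00842) and Nbn (-1.15 ± 0.26; adjusted p = 0.0236) had a lower one. For Xrcc5 the responses had opposite signs, below 0 with LMP1, without passing, and above 0 with CD40 activation. The Chek1 call was lost under 9 of 14 alternatives, that of Polh under 7, of Nbn under 5 and of Xrcc5 under 2. With array medians subtracted 0 of the 32 genes passed upward and 2 downward. None of the 4 calls was made under every alternative run: 0 genes were called by limma without LMP1 1 or without CD40-activated 2 (7 and 7 at an unadjusted p under 0.05), 10 were called without YFP control 1 and 7 without naive control 2. Calls numbered 1 without LMP1 2, 1 without CD40-activated 1 and 2 without YFP control 2.

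**Figure D4:**
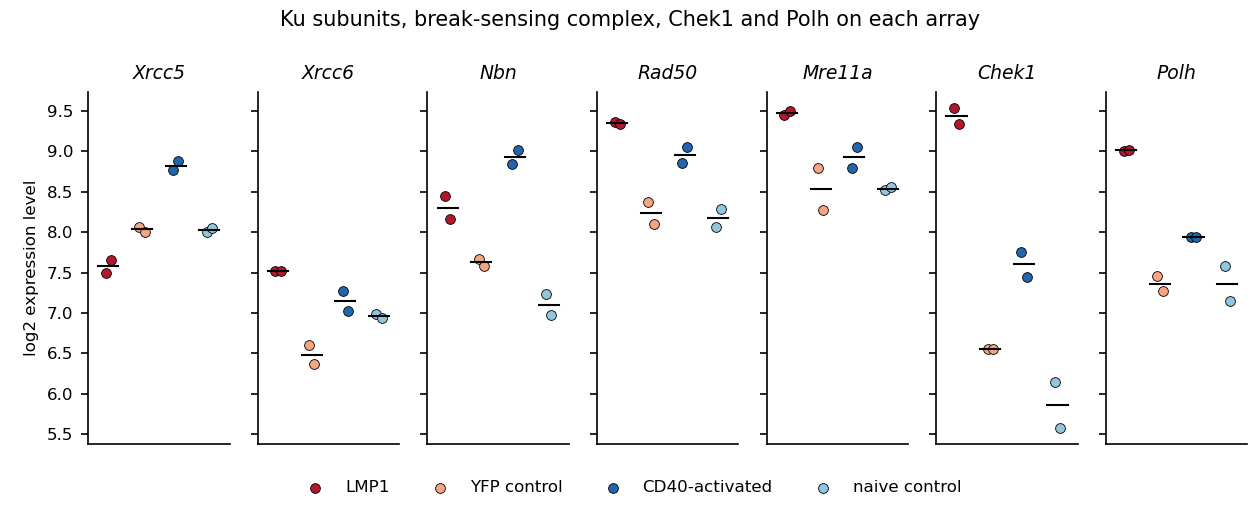
Log2 level of 7 genes on each array (points) with the group mean (line), in the order LMP1, YFP control, CD40-activated and naive control from left to right in each panel. Xrcc5 is lowest on the LMP1 arrays and highest on the CD40-activated arrays while its partner Xrcc6 is highest on the LMP1 arrays, and Nbn is highest on the CD40-activated arrays while Rad50 and Mre11a are highest on the LMP1 arrays.

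Within complexes the responses were compared side by side. For Ku, Xrcc6 had a difference of 0.86 ± 0.24 (adjusted p = 0.059), opposite in sign to that of Xrcc5 and with an adjusted p above the threshold. For the MRE11 complex, Mre11a (0.56 ± 0.29; 95% interval -0.08 to 1.19) and Rad50 did not pass, beside Nbn that did; whether Nbn differs from its partners was not tested. Brca1 (1.55 ± 0.44; adjusted p = 0.0596) and Bard1 (1.14 ± 0.38; adjusted p = 0.103) had positive values that did not pass. For Brca2 (-0.65), Brip1 (-0.51) and Rad51ap1 (-0.60) the value was below 0 without passing. Single control arrays moved these values: that of Brca2 was -1.30 without naive control 1, where it passed (adjusted p = 0.0349), and -0.01 without naive control 2. That of Rad51ap1 was -1.14 without YFP control 1, where it passed (adjusted p = 0.0445), and -0.06 without YFP control 2, while Brip1 ranged from -0.77 to -0.24 without passing. Brca1 (0.97 to 2.13), Bard1 (0.75 to 1.53) and Xrcc6 (0.73 to 0.98) passed under 2 of 14 alternatives each and Mre11a (0.29 to 0.82) under 1. Fancd2, Fanci and Palb2, which rose in both responses, did not pass, and their intervals in the plot of response differences reach more than 0.5 log2 to either side of 0.

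**Figure D5:**
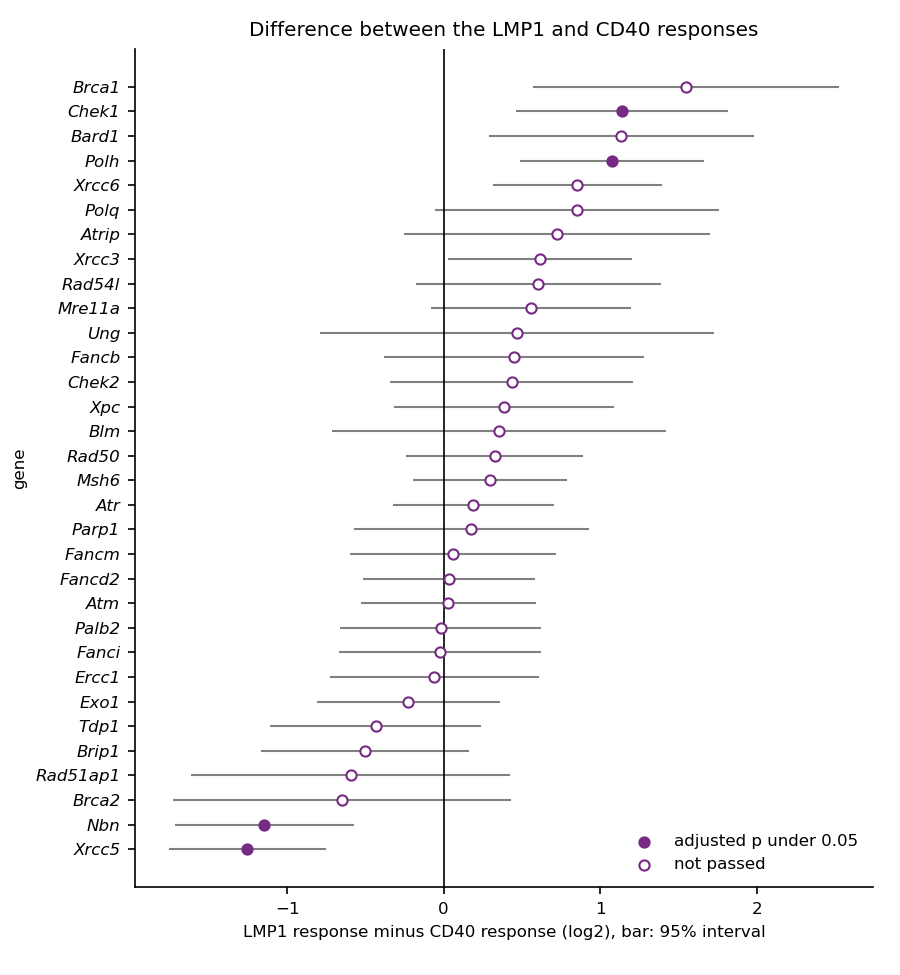
LMP1 response minus CD40 response of each gene (log2) with its 95% interval, sorted by value and with filled points where the adjusted p was under 0.05. Chek1 and Polh (filled, right of 0) and Nbn and Xrcc5 (filled, left of 0) are the genes that passed, and Brca1 has the highest value at 1.55 with a wide interval.

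YFP control cells were set against naive control cells to show what separates the controls: 2 days of culture, recombinase, sort, background, sex and set of arrays, which cannot be told apart. Of the 32 genes 10 were higher in YFP control cells and 2 lower, where 10.9% of all genes were higher and 7.59% lower, with a median of 0.38. This comparison shares its arrays with both responses above, so its values are not independent of theirs. Brip1 (1.35 ± 0.21), Rad51ap1 (1.26 ± 0.32), Brca2 (1.20 ± 0.34) and Tdp1 (1.01 ± 0.21) were higher by more than 1 log2. Exo1 (0.97), Fancb, Fancd2 (0.82), Ercc1 (0.71), Chek1 (0.70) and Fanci (0.68) were higher by less. Xpc was at 6.83 and 6.31 in YFP control and 7.75 and 7.41 in naive control cells and was lower (-1.01 ± 0.22; adjusted p = 0.0124), as was Msh6 (-0.51 ± 0.16; adjusted p = 0.0475). Xpc was the 1 gene of the 32 with its highest group mean in naive control cells. Of the other repair genes 28 of 133 were higher in YFP control cells and 12 lower, with Fancf (1.91), Ube2a (1.63), Swsap1 (1.52) and Faap24 (1.45) at the top and Sem1 (-2.29), Rnf8 (-1.22), Gadd45g (-1.03) and Nthl1 (-0.79) at the bottom.

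Brca1, Polq, Polh, Rad50, Mre11a, Xrcc5 and Atm were among the 20 genes that did not pass between the controls. The Brip1 call was the 1 of 12 made under every alternative run. With naive control 1 left out 16 of the 32 genes were called, with naive control 2 left out 5, and with YFP control 2 left out 5. Leaving out an LMP1 or CD40-activated array left 6. Without naive control 2 the value of Brca2 was 0.56, of Fancb 0.52, of Ercc1 0.40 and of Chek1 0.42, none of which passed, and without naive control 1 that of Brca2 was 1.85. Without YFP control 2 the values of Rad51ap1 and Fanci were 0.72 and 0.43 and did not pass. With the 4 control arrays alone in the fit 1 of the 32 was called. T cell markers separated these groups too, with mean levels of 5.36 to 5.81 on the YFP control arrays and 8.47 to 8.64 on the naive arrays. In YFP control cells 3 of 4 natural killer cell, 1 of 2 erythroid and platelet and 1 of 4 neutrophil markers were lower as well. Of 5 monocyte and macrophage markers 2 were higher and 1 lower, and 2 of 5 B cell markers were higher. The part of these markers in the result was not tested.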

How the data were processed

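RNA of 8 samples was measured on Affymetrix whole-transcript arrays. Per the submitters' processing notes, the authors made the deposited log2 values by RMA with the oligo package (versions and genome build not given in the sources used here), and per the labels the LMP1 and YFP control arrays were taken from an earlier series and re-analysed. The table holds 25349 probe sets with 2 decimals: 22225 name a single gene, 616 name more than 1 and 2508 name no gene, and the last 2 kinds were not used. Where a gene had more than 1 probe set (640 genes), the brightest stood for it. Array medians lay between 5.52 and 5.68. The number of arrays limits the precision.

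The main model held 4 group means over all 8 arrays (limma 3.58.1, R 4.3.3; lmFit and eBayes), with 4 residual and 5.75 prior degrees of freedom. Two-sided p-values got the Benjamini-Hochberg adjustment across the 21515 genes. Errors are standard errors of the model, and 95% intervals are unadjusted. The procedure was tested on simulated data. The members and lists were chosen with earlier results of these data known. Values per array were given for the genes with the highest and lowest called changes and the extremes of each role, and other repair genes were named by the 4 highest and 4 lowest called changes with Prkdc and Cdkn1a added (the rule names further genes not analysed here). Alternatives were trend and robust moderation, the compared groups alone, a filter on dim genes, 2 scalings, the mean of probe sets, each array left out and a replicate block. Same-numbered arrays were checked for pairing (r = 0.065 for LMP1 with YFP control, -0.069 for CD40-activated with naive control), and the numbers were not used as pairs. Promoters came from RefSeq.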

Additional observations from a re-analysis of the deposited data

Results flagged for a closer look

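The LMP1 response and the CD40 response differed by the test of the difference itself for 4 genes, each value being LMP1 response minus CD40 response on the log2 scale. Chek1 had 1.14, with responses of 2.89 to LMP1 and 1.75 to CD40 activation. Polh had 1.08, with 1.65 to LMP1 and 0.58 to CD40 activation. Xrcc5 had -1.26, with -0.46 to LMP1 and 0.80 to CD40 activation. Nbn had -1.15, with 0.68 to LMP1 and 1.83 to CD40 activation. Over all genes 4.20% passed this test upward and 4.12% downward, and the share of the repair and checkpoint genes was near that. None of the 4 calls was made under every alternative run, and those of Chek1 and Polh were lost with array medians subtracted.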

How the results depend on the processing

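With 2 arrays per group, leaving out 1 array leaves 3 of 4 residual degrees of freedom and a lone array is taken to vary like the other groups. Leaving out each of the 8 arrays in turn gave 16 to 26 members called for LMP1 against YFP control (2647 to 7090 of all genes), 9 to 24 for CD40-activated against naive control (1576 to 5631), 5 to 21 for LMP1 against CD40-activated (1275 to 4735), 5 to 16 for YFP control against naive control (2695 to 5955) and 0 to 10 for the difference of responses (707 to 4199). The 0 came without LMP1 1 and without CD40-activated 2. With only the groups compared in the fit, LMP1 against CD40-activated had 27 members and 6360 genes called, and YFP control against naive control 1 member and 1537 genes; this was not run for the difference of responses, which needs every group. With array medians subtracted the difference of responses had 2 members called, both downward, and Chek1 and Polh did not pass. Over all genes 64.2% of the calls were upward with LMP1, against 70.6% with array medians subtracted. With each set quantile-normalized on its own the LMP1 share was 52.0%, where 20 members rose and 1, Xrcc5, fell. For CD40 activation the share was 62.4%, against 73.7% with array medians subtracted. It was 52.6% with each set quantile-normalized, where 12 members were called.
Values near 0 that turned sign were those of Xpc with LMP1 (-0.13 with each set quantile-normalized, -0.08 without LMP1 1, and -0.26 to 0.27 over all arrays left out), Parp1 with LMP1 (-0.10 to 0.63 over all arrays left out, the 0.63 passing), Parp1 with CD40 activation (-0.093 with that normalization, -0.07 to 0.25 over all arrays left out) and Xrcc6 with CD40 activation (-0.0013 with that normalization). None of the others passed. The causes were not tested. The replicate block, which had no basis in the labels, gave 25, 20, 13, 10 and 5 members called in the 5 comparisons in the order above (4959, 3647, 3036, 3807 and 1739 genes). Under trend and robust fitting, without dim genes and with mean probe sets, counts of members stayed within 1.5 times.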

Other observations

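Levels of 3 other repair genes, given here as examples, stood apart between the sets of arrays, without overlap. The share of all genes that do so was not counted. Fancf, a core subunit of the Fanconi complex, was at 8.68 and 8.73 in LMP1 and 7.63 and 8.24 in YFP control cells, against 6.59 and 6.72 in CD40-activated and 5.86 and 6.19 in naive control cells. Its change was 1.91 between the controls and 2.05 between LMP1 and CD40-activated cells. Faap24, a DNA-binding partner of Fancm, was at 10.27 and 10.28 in LMP1 and 8.76 and 8.55 in YFP control cells, against 7.97 and 7.75 in CD40-activated and 7.10 and 7.32 in naive control cells. Sem1, a small acidic protein that binds BRCA2, ran the other way, at 8.19 and 8.36 in LMP1 and 7.90 and 6.94 in YFP control cells, against 9.71 and 9.84 in CD40-activated and 9.62 and 9.80 in naive control cells. Genes of the main list split by set as well. Ercc1 was at 7.66 to 8.22 in LMP1 and YFP control cells, against 6.7 to 7.57 in CD40-activated and naive control cells. Xpc (6.31 to 6.83 against 7.04 to 7.75) and Parp1 (9.36 to 10.09 against 10.24 to 10.56) were lower in LMP1 and YFP control cells. Background, sex, recombinase, sort and set of arrays cannot be told apart here.

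Gadd45b and Gadd45g encode small stress sensors. Gadd45b was at 10.70 and 10.85 in LMP1 and 8.80 and 8.63 in CD40-activated cells (2.06 ± 0.30). Gadd45g had a difference of responses of 2.13 ± 0.25, with 0.62 to LMP1 and -1.51 to CD40 activation. Of the other repair genes 11 of 133 passed that test upward and 0 downward by limma, where 4.20% of all genes passed upward and 4.12% downward.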
